A study of Mus musculus with 28 samples.

Results

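Zmpste24, the genes of the nuclear lamina and their partners in the nuclear envelope were followed through every library of a study of premature skeletal ageing in mice. The genes were Zmpste24, the lamin genes Lmna, Lmnb1 and Lmnb2, the lamin B receptor gene Lbr, the methyltransferase gene Icmt, and Emd, Tmpo, Sun1 and Sun2. They were taken by name, by a rule that uses no measured value but with earlier results of these data known, and are 10 of 53801 genes listed in the RNA-seq count tables. All 10 were found in the RNA-seq tables by Ensembl identifier, in the single-cell matrices by symbol and in the ATAC-seq peak lists by position on the mouse genome build mm10.

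Single-cell RNA-seq (scRNA-seq) came from 4 libraries of Ai9-labelled cells sorted from bone marrow and bone as negative for CD45, Ter119 and CD31. At 8 weeks of age there was 1 Prx1-Cre library (993 cells kept, 1554098 UMIs, where a UMI is a molecular identifier that counts 1 RNA molecule) and 1 Osx-Cre library (782 cells, 1040275 UMIs). At 16 weeks there was 1 control library, Prx1-Cre with 1 floxed Zmpste24 allele (2068 cells, 3609446 UMIs), and 1 conditional knockout (CKO) library, Prx1-Cre with both alleles floxed (2362 cells, 3503024 UMIs), each of them pooled from 3 mice. The methods of the study attach cell numbers much like these to the genotypes the other way round, so the libraries are called control and CKO here by their labels, and the Zmpste24 level given further on was lower in the library labelled CKO. Prx1-Cre drives recombination in limb mesenchyme and its descendants and Osx-Cre in cells of the osteoblast lineage, so only cells with a history of Cre expression carry the Ai9 label and the deletion. The genotype field of the labels names homozygous floxed Zmpste24 alleles for both 8-week libraries, whereas the methods of the study describe Cre;Rosa26-Ai9 mice without them for this experiment, and the 2 sources could not be reconciled here. At most 10 cell barcodes were common to any pair of libraries, in this case control and CKO.

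RNA-seq and ATAC-seq came from sorted populations of 20-week-old mice, with 3 control and 3 CKO libraries of each population for each assay. The gpSSPCs (growth plate skeletal stem and progenitor cells) were Prx1-lineage, CD73+ cells of the growth plate, and the pSSPCs (periosteal skeletal stem and progenitor cells) were Prx1-lineage, Sca1+ cells of the periosteum. Control and CKO were assigned from the sample titles, since the genotype field gives Prx1-Cre with floxed Zmpste24 alleles for both. RNA-seq libraries were made from 1000 cells and held 1333260 to 5315709 deduplicated counts. In each of the 4 RNA groups, the counts of replicate 2 matched those of replicate 3 within sampling noise over genes of 5 to 99 counts (chi-square divided by its degrees of freedom 0.820 to 0.980, against 10.2 to 13.1 for any pair with replicate 1), so both were summed and counted as 1 sample, which left 2 samples per group. Over genes of at least 20 counts the same measure was 1.59 to 1.92 for replicates 2 and 3, above sampling noise. It was 53.2 to 71.5 there for pairs with replicate 1. The labels do not say that samples came from separate animals, so p-values measure only the spread between these samples.

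Lamins are intermediate filament proteins that line the inner face of the nuclear membrane. Lmna encodes prelamin A and, by alternative splicing, lamin C, whereas Lmnb1 and Lmnb2 encode the B-type lamins. Prelamin A ends in a CaaX motif, whose cysteine is farnesylated, after which the last 3 residues are removed, the cysteine is methylated by ICMT, and ZMPSTE24, a zinc metalloproteinase of the endoplasmic reticulum and inner nuclear membrane, cuts off the farnesylated end to release mature lamin A. Loss of Zmpste24 leaves prelamin A farnesylated, and a shortened prelamin A that lacks the ZMPSTE24 cleavage site is the cause of Hutchinson-Gilford progeria. LBR, emerin (Emd), LAP2 (Tmpo), SUN1 and SUN2 are proteins of the inner nuclear membrane that bind lamins, chromatin or, for the SUN proteins, the nesprins that couple the nucleus to the cytoskeleton.

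These sequences show the 3 places on which the model turns, and were read from the GENCODE vM21 coding transcripts, 5′ to 3′ on the coding strand. Zmpste24 (ENSMUSG00000043207) lies on the minus strand at chr4:121059237-121098241 and Lmna (ENSMUSG00000028063) on the minus strand at chr3:88480147-88509956. The loxP sites flank exon 6 of the 10 exons of Zmpste24, chr4:121081172-121081313, whose 142 bases leave a remainder of 1 when divided by 3. The zinc-binding HEXXH motif is encoded downstream of it, in exon 8 at chr4:121068740-121068778, from codon 335, and the codons of its histidines and glutamate are in capitals. The last 18 codons of prelamin A span exons 11 and 12 of Lmna (chr3:88482346-88482375 and chr3:88482077-88482100), with the CaaX codons in capitals. Prelamin A (1995 coding bases) and lamin C (1722 coding bases) share their first 1705 coding bases, so only prelamin A has this end.
Zmpste24 exon 6: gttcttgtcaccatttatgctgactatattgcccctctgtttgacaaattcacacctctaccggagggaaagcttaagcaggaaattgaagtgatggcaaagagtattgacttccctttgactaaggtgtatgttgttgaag
Zmpste24 zinc site: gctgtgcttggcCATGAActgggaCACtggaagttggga
Lmna prelamin A end: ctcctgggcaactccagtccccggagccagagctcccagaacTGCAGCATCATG

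Zmpste24 transcripts were lower in the CKO than in the control library at 16 weeks. The control library held 70 Zmpste24 UMIs, or 19.4 CPM (UMIs of the gene scaled to a common total per library, with an exact Poisson 95% interval of 15.1 to 24.5), and the CKO library 11 UMIs, or 3.14 CPM (1.57 to 5.62). The intervals do not overlap and the control level was 6.18-fold that of the CKO, but 1 library per group allows no replicate check and no test, and the intervals cover counting error only. The libraries were made with a droplet kit that tags the 3′ end of a transcript, and the last exon of Zmpste24 holds 1984 bases outside exon 6, so these UMIs count the transcript and do not read the deleted exon itself. Both 16-week groups carry Prx1-Cre, and the control has 1 floxed allele.

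Zmpste24 was lower in CKO in the most numerous class of cells, and had 0 UMIs in the other skeletal classes of CKO. Cells were clustered after integration of the libraries with the listed genes kept out of the features, and clusters were named from marker genes as BMSC-like (bone marrow stromal), OB-like (osteoblast, Bglap and Col1a1), chondrocyte-like (Col9a1, Col2a1), PMSC-like (periosteal, Prg4 and Ly6a), pericyte-like (Rgs5, Acta2), endothelial-like (Plvap, Cdh5, 8 weeks only) and erythroid-like (Hbb-bs, Hba-a1, 16 weeks only). Adipoq led the BMSC-like cluster of 1077 cells at 8 weeks, and Lepr was among the 10 leading genes of one of 1505 cells at 16 weeks. The BMSC-like clusters of 2281 cells at 16 weeks and 37 cells at 8 weeks had 0 BMSC markers among their 10 leading genes. In the cluster of 2281 cells, 7 of 7 BMSC markers were detected. In BMSC-like cells Zmpste24 had 53 UMIs in 1711 control cells (19.6 CPM, 14.7 to 25.7) and 9 UMIs in 2075 CKO cells (3.01 CPM, 1.38 to 5.71), a 6.52-fold difference. OB-like cells held 6 control and 0 CKO UMIs, chondrocyte-like cells 6 and 0, and PMSC-like cells 4 and 0. Taken as 3 UMIs, the limit that a count of 0 allows was 11.8 CPM in the 178 OB-like CKO cells, 33.9 CPM in the 20 chondrocyte-like cells and 52.5 CPM in the 30 PMSC-like cells, against control levels, with exact Poisson intervals, of 14.6 (5.36 to 31.8), 24.7 (9.07 to 53.8) and 26.3 CPM (7.15 to 67.2), so a difference was not detectable in these classes at this depth. The 26 erythroid-like CKO cells held 2 of the 11 CKO UMIs and the 28 erythroid-like control cells held 0. Without erythroid-like cells, a subset chosen after seeing the data, the control to CKO ratio was 7.56-fold.

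At 8 weeks Zmpste24 was higher in Osx-Cre than in Prx1-Cre cells. The Prx1-Cre library held 27 UMIs (17.4 CPM, 11.5 to 25.3) and the Osx-Cre library 45 UMIs (43.3 CPM, 31.6 to 57.9), a 2.49-fold difference. The Prx1-Cre interval overlaps that of the 16-week control and lies above that of the 16-week CKO, in libraries of another age. Within classes the same order held in BMSC-like cells (11 UMIs, 20.5 CPM against 20 UMIs, 40.2 CPM), OB-like cells (3 UMIs, 10.9 CPM against 11 UMIs, 44.7 CPM) and chondrocyte-like cells (9 UMIs, 16.8 CPM against 14 UMIs, 53.0 CPM), with overlapping intervals in each class. PMSC-like cells held 3 UMIs in Prx1-Cre (17.1 CPM) and 0 in the 8 Osx-Cre cells, where 3 UMIs equal 237.5 CPM, so no order could be read there. Zmpste24 did not mark a class: in the 16-week control the class levels ran from 14.6 CPM in OB-like cells to 39.9 CPM in the 17 pericyte-like cells (1 UMI), all within overlapping intervals, and were 0 UMIs in erythroid-like cells. With 1 library per Cre line, the driver and the library cannot be told apart.

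**Figure D1:**
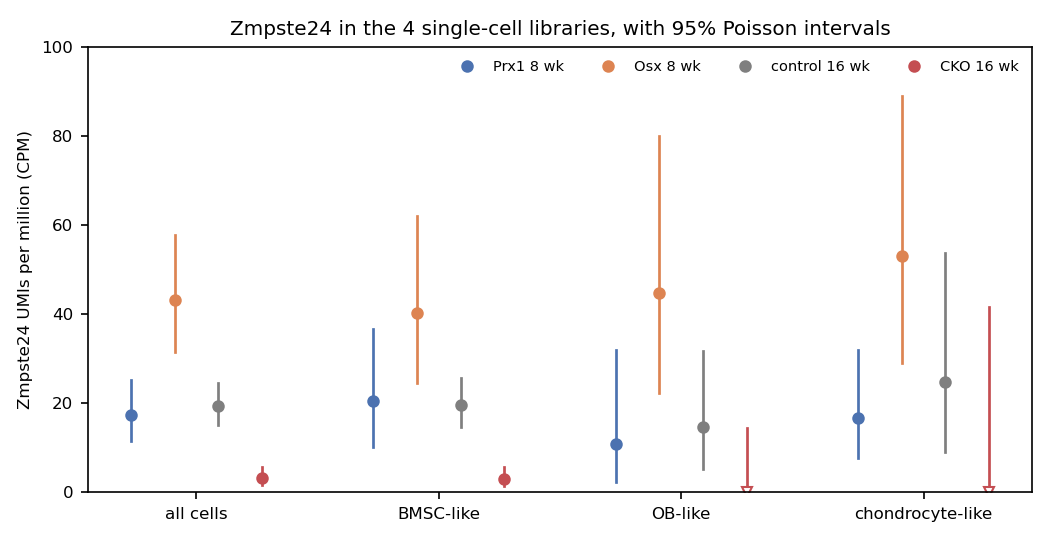
Zmpste24 level in CPM (vertical axis) in all cells and in BMSC-like, OB-like and chondrocyte-like cells of the 4 scRNA-seq libraries, with exact Poisson 95% intervals as bars. In all cells the CKO library sits at 3.14 CPM, below the control at 19.4, and the Osx-Cre library at 43.3 lies above the Prx1-Cre library at 17.4.

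The RNA-seq of sorted populations asked the same question at 20 weeks. The libraries of pSSPCs held 1, 51 and 84 Zmpste24 counts in control replicates 1 to 3 and 0, 28 and 41 in CKO, and those of gpSSPCs held 11, 48 and 80 in control and 2, 21 and 29 in CKO. In normalised values (CPM, with TMM scaling), replicate 1 and the sum of replicates 2 and 3 gave 0.822 and 16.3 in control pSSPCs, 0 and 7.41 in CKO pSSPCs, 4.61 and 15.6 in control gpSSPCs, and 1.14 and 7.83 in CKO gpSSPCs. The CKO sample was lower in 4 of 4 same-numbered pairs, a pattern that 6.42% of all 13173 genes shared (lower in both pairs were 24.9% of genes in gpSSPCs and 24.6% in pSSPCs), but the groups overlapped in both populations since replicate 1 was lower than the rest in every group. The log2 fold change was -1.13 (SE 1.42, 95% interval -4.44 to 2.18) in gpSSPCs and -1.17 (SE 2.17, -6.05 to 3.70) in pSSPCs, with an adjusted p of 1.0 for both by edgeR's quasi-likelihood test with Benjamini-Hochberg adjustment. The intervals hold both no change and the 6.18-fold difference of the single cells. In such bulk samples, fewer cells of a type and less RNA per cell cannot be told apart. The label CKO therefore rests here on the sample titles. The lower Zmpste24 level in 4 of 4 pairs did not pass a test.

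Lmna, the gene of the ZMPSTE24 substrate, was highest in PMSC-like cells and, in 3 of 4 libraries, pericyte-like cells. In PMSC-like cells the level was 524 CPM in Prx1-Cre (92 UMIs, 422 to 642), 712 in Osx-Cre (9 UMIs in 8 cells, 326 to 1353, and 1448 when libraries were merged without integration), 492 in control (75 UMIs, 387 to 617) and 402 in CKO (23 UMIs, 255 to 604). In BMSC-like cells it was 102.6 CPM in Prx1-Cre (77.3 to 134), 102.6 in Osx-Cre (76.4 to 135), 95.9 in control (84.5 to 108) and 92.3 in CKO (81.7 to 104). The PMSC-like level was 5.11, 6.94, 5.14 and 4.36 times the BMSC-like level of the same library, with intervals that did not overlap in any of the 4, and 13.6% of 2797 well-detected genes were likewise higher in PMSC-like than in BMSC-like cells in 4 of 4 libraries. Pericyte-like cells had 550 CPM in Prx1-Cre (9 UMIs), 359 in control (9 UMIs) and 267 in CKO (12 UMIs), and 0 UMIs in the 18 Osx-Cre cells.

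Among the other classes, Lmna in OB-like cells stood between the extremes. It was 142, 163, 178 and 157 CPM in Prx1-Cre, Osx-Cre, control and CKO, which is 1.38, 1.58, 1.85 and 1.70 times the BMSC-like level and higher in 4 of 4 libraries, as were 12.1% of the 2797 genes. Chondrocyte-like cells had 134.5, 114, 107 and 158 CPM, also above BMSC-like cells in 4 of 4 (21.99% of genes), but by 1.11-fold to 1.71-fold and with overlapping intervals. In the control library the order from high to low was PMSC-like, pericyte-like, OB-like, erythroid-like (144 CPM, 71.9 to 258), chondrocyte-like and BMSC-like, and of these neighbours the intervals overlapped at each step. The PMSC-like interval was apart from those of OB-like, chondrocyte-like and BMSC-like cells, and the OB-like interval was apart from that of BMSC-like cells. These class levels are a description of libraries in which the classes were themselves defined by expression, and no test was made.

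**Figure D2:**
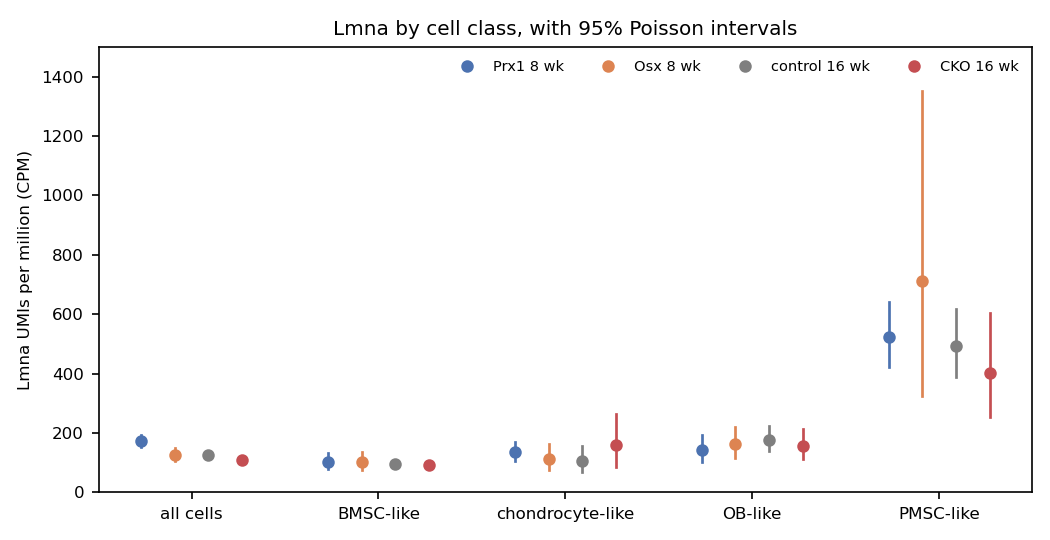
Lmna level in CPM (vertical axis) by class of cells in the 4 scRNA-seq libraries, with exact Poisson 95% intervals as bars. PMSC-like cells reach 402 to 712 CPM in the 4 libraries and BMSC-like cells 92.3 to 102.6 CPM.

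The genes whose levels were most like Lmna were Gsn, S100a6 and Aspn. Over 15 sums of cells (a class in a library with at least 30 cells) and 2797 genes, Pearson's r of log2 levels with Lmna was 0.970 for Gsn, 0.966 for S100a6 and 0.943 for Aspn. Gsn encodes the actin-severing protein gelsolin, S100a6 a calcium-binding protein and Aspn the small leucine-rich proteoglycan asporin. The sums share 4 libraries and the same classes, so r is a description with no p. Gsn was also among the 10 leading genes of the 16-week PMSC-like cluster.

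Lmna differed little between genotypes in single cells. In all cells of the 16-week libraries it had 453 UMIs (126 CPM, 114 to 138) in control and 378 UMIs (108 CPM, 97.3 to 119) in CKO, a control to CKO ratio of 1.16 with overlapping intervals, and in BMSC-like cells the ratio was 1.04. PMSC-like cells, the class with the highest level, made up 62 control and 30 CKO cells. At 8 weeks Lmna was 172 CPM in Prx1-Cre (152 to 194) and 126 CPM in Osx-Cre (105 to 149), while BMSC-like cells had 102.6 CPM in both, and PMSC-like cells numbered 127 and 8. These cell numbers move with the Lmna level of all cells, and their part in it was not tested.

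In sorted populations the TMM-scaled level of Lmna was higher in CKO than in control in 4 of 4 same-numbered pairs, as were 5.83% of all genes tested. The normalised values of replicate 1 and of the sum of replicates 2 and 3 were 808 and 1165 CPM in control pSSPCs and 986 and 1391 CPM in CKO pSSPCs. They were 613 and 864 CPM in control gpSSPCs and 642 and 1114 CPM in CKO gpSSPCs. In replicate 1 of gpSSPCs Lmna had 1463 of 2366909 counts in control and 1130 of 1838028 in CKO. Before TMM scaling this pair was thus not higher in CKO. Within each population the groups overlapped, and the log2 fold change was 0.25 (SE 0.49, 95% interval -0.90 to 1.40) in gpSSPCs and 0.29 (SE 0.46, -0.76 to 1.34) in pSSPCs, with an adjusted p of 1.0 for both (edgeR, Benjamini-Hochberg). Lmna was also lower in gpSSPCs than in pSSPCs of the same genotype and number in all 4 such pairs, by a log2 fold change of -0.34 (SE 0.49) in control and -0.43 (SE 0.49) in CKO, neither past the test, and 26.5% of genes in control and 29.8% in CKO were likewise lower in both pairs. The PMSC marker Ly6a, which encodes the Sca1 antigen used in the sort, was 1161 to 2839 CPM in the 4 pSSPC samples and 298 to 827 CPM in the 4 gpSSPC samples.

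The values of the B-type lamin genes rested on few UMIs. Lmnb1 (ENSMUSG00000024590, chr18:56707813-56753424, plus strand) had 37 UMIs in control (10.2 CPM, all cells) and 17 in CKO (4.85 CPM), a control to CKO ratio of 2.11. In the control library 15 of the 37 UMIs lay in 28 erythroid-like cells (197 CPM, 110 to 324), and in the CKO library 2 of the 17 lay in 26 erythroid-like cells (29.5 CPM, 3.57 to 107). Without erythroid-like cells the counts were 22 and 15 (ratio 1.43), and in BMSC-like cells alone 14 and 13 (5.18 and 4.35 CPM, ratio 1.19). The sort was negative for the erythroid antigen Ter119, and these cells carried Hbb-bs and Car2.

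Of 12 proliferation genes 6 had at least 50 UMIs over both 16-week libraries, and 1 was lower in CKO by 1.5-fold or more and 0 were higher (5.45% and 2.73% of all genes), with a list median of -0.39 on the log2 scale. Birc5, which encodes a chromosomal passenger protein of dividing cells, had 52 UMIs in control and 27 in CKO over all cells, and 20 and 13 without erythroid-like cells. The other 5 did not pass. In control and CKO they had 479 and 391 UMIs (Hmgb2), 74 and 76 (Tyms), 60 and 46 (Rrm2), 35 and 25 (Top2a) and 32 and 21 (Ube2c) over all cells. Without erythroid-like cells the counts in the same order were 357 and 316, 65 and 66, 28 and 14, 12 and 12, and 10 and 4. Outside the erythroid-like class, Lmnb1 was detected in chondrocyte-like cells with 10 UMIs in Prx1-Cre (18.7 CPM, 8.96 to 34.4), 4 in Osx-Cre and 4 in control, while a count of 0 in 20 CKO cells leaves room for 33.9 CPM. It had 0 UMIs in PMSC-like cells of each of the 4 libraries. There 3 UMIs equal 17.1 to 237.5 CPM, above the BMSC-like levels of 4.35 to 12.1 CPM, so no order could be read. Lmnb1 had at most 3.5 CPM in any RNA-seq sample and did not pass the filter on low counts there.

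Lmnb2 (ENSMUSG00000062075, chr10:80901203-80918245, minus strand) had 22 UMIs in control and 20 in CKO, a ratio of 1.07. It was higher in chondrocyte-like than in BMSC-like cells in 4 of 4 libraries, by 8.01, 9.41, 2.09 and 2.41 times in Prx1-Cre, Osx-Cre, control and CKO, a direction shared by 21.99% of genes. These ratios rest on 8, 5, 3 and 1 chondrocyte-like UMIs, with overlapping intervals in each library. In sorted populations Lmnb2 was 6.6 and 2.2 CPM in control pSSPCs, 3.5 and 3.4 in CKO pSSPCs, 28.1 and 3.0 in control gpSSPCs, and 10.2 and 9.5 in CKO gpSSPCs. In CKO both gpSSPC samples were above both pSSPC samples, at a log2 fold change of 1.51 (SE 1.48) that did not pass the test (edgeR, adjusted p of 1.0). In that comparison 30.4% of all genes separated the populations in either direction.

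Lbr (ENSMUSG00000004880, chr1:181815335-181843046, minus strand), whose protein tethers heterochromatin and also has sterol reductase activity, was highest in erythroid-like cells. It stood there at 183 CPM in control (14 UMIs, 100.2 to 308) and 147 CPM in CKO (10 UMIs, 70.7 to 271), and in BMSC-like cells at 13.0 CPM (9.02 to 18.01) and 14.7 CPM (10.7 to 19.8). OB-like cells exceeded BMSC-like cells in 4 of 4 libraries, from 1.01 times in Osx-Cre to 3.42 times in Prx1-Cre (4 to 11 OB-like UMIs), as did 12.1% of genes. The whole-library levels of 18.01 CPM in control and 19.4 CPM in CKO had a ratio of 1.08, CKO to control. Lbr had at most 6.8 CPM in any RNA-seq sample and was too low to be tested in the pSSPC genotype comparison.

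Icmt (ENSMUSG00000039662, chr4:152297227-152307121, plus strand), whose product methylates the farnesylated cysteine in the step before the ZMPSTE24 cleavage, was close in the 16-week libraries, at 10.5 CPM in control (38 UMIs) and 13.1 CPM in CKO (46 UMIs). It was lower in chondrocyte-like than in BMSC-like cells in Prx1-Cre, Osx-Cre and control, on 3, 5 and 2 chondrocyte-like UMIs with overlapping intervals, while 0 UMIs in the 20 CKO cells leave room for 33.9 CPM, above the BMSC-like 12.7 CPM, so no order could be read there. Of all genes, 44.7% were lower in chondrocyte-like than in BMSC-like cells in 4 of 4 libraries. In sorted populations the 2 samples were far apart in control pSSPCs, at 71.5 and 4.4 CPM, and close in CKO pSSPCs, at 7.6 and 8.8, with 13.0 and 5.7 in control gpSSPCs and 22.7 and 10.2 in CKO gpSSPCs. Only the CKO gpSSPC samples stood above the CKO pSSPC samples without overlap, at a log2 fold change of 1.00 (SE 1.12) that did not pass the test. In that comparison 30.4% of all genes separated the populations in either direction.

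The other enzymes of prelamin A processing showed no change past the fold used. Fnta and Fntb encode the subunits of farnesyltransferase and Rce1 the protease that removes the last 3 residues. Fnta had 114 CPM in control and 97.6 in CKO, Fntb 8.31 and 8.85, and Rce1 42.1 and 42.3, so that 0 of 3 passed 1.5-fold in either direction. Of all genes only 2.73% were higher and 5.45% lower in CKO by that fold, so a list of 3 says little. At 8 weeks 2 of the 3 had enough UMIs, Rce1 (43.8 CPM in Prx1-Cre, 32.7 in Osx-Cre) and Fnta (99.1 and 120 CPM), and neither passed. Of all genes 6.78% were higher and 7.95% lower in Prx1-Cre by that fold.

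Emd (ENSMUSG00000001964, chrX:74254687-74261548, plus strand, with the pseudogene Gm14686 overlapping it) encodes emerin, and was 53.2 CPM in control (192 UMIs) and 55.4 CPM in CKO (194 UMIs). It was highest in pericyte-like cells, at 490 CPM in CKO (22 UMIs, 307 to 741), 120 in control (3 UMIs), 183 in Prx1-Cre (3 UMIs) and 64.1 in Osx-Cre (1 UMI), above BMSC-like cells in 4 of 4 libraries (10.0% of genes), and only the CKO interval was apart from that of BMSC-like cells (53.2 CPM, 45.2 to 62.1). Emd was lower in OB-like and in chondrocyte-like than in BMSC-like cells in 4 of 4 libraries, directions that 48.5% and 44.7% of genes share. RNA-seq gave 10.8 to 39.8 CPM over the 8 samples, with replicate 1 the higher in each group.

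Tmpo (ENSMUSG00000019961, chr10:91147571-91181315, minus strand) encodes LAP2, which binds lamins and chromatin, and was 30.2 CPM in control (109 UMIs) and 26.0 CPM in CKO (91 UMIs). At 8 weeks it was 32.8 CPM in Prx1-Cre (51 UMIs) and 15.4 CPM in Osx-Cre (16 UMIs), a 2.13-fold difference. In the Prx1-Cre library 23 of its UMIs lay in chondrocyte-like cells (43.0 CPM, 27.2 to 64.5) and 10 in PMSC-like cells (56.9 CPM, 27.3 to 105), classes with 161 and 127 cells there and 73 and 8 cells in the Osx-Cre library. Tmpo in erythroid-like cells was 118 CPM in control (9 UMIs) and 88.4 CPM in CKO (6 UMIs). Its RNA-seq values of 4.1 to 29.3 CPM split by replicate, with replicate 1 the lower in each group.

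Sun1 (ENSMUSG00000036817, chr5:139200637-139249840, plus strand) and Sun2 (ENSMUSG00000042524, chr15:79724070-79742536, minus strand) differed little between the 16-week libraries. Sun1 was 25.8 CPM in control (93 UMIs) and 23.7 in CKO (83 UMIs), and Sun2 18.8 CPM in control (68 UMIs) and 25.1 in CKO (88 UMIs), a CKO to control ratio of 1.33 that was 1.18 in BMSC-like cells. Sun2 was lower in chondrocyte-like than in BMSC-like cells in Prx1-Cre, Osx-Cre and control, on 4, 3 and 1 chondrocyte-like UMIs with overlapping intervals, and in CKO 0 UMIs leave room for 33.9 CPM against 23.1 CPM in BMSC-like cells. Of all genes, 44.7% were lower in chondrocyte-like cells in 4 of 4 libraries. In CKO pericyte-like cells Sun2 was 156 CPM (7 UMIs, 62.6 to 321), apart from BMSC-like cells (17.95 to 29.2). Pericyte-like cells held 1 Sun2 UMI in Prx1-Cre, 1 in control and 0 in Osx-Cre. In RNA-seq Sun1 stood at 11.5 and 41.6 CPM in control pSSPCs and at 7.6 and 33.1 in CKO pSSPCs, lower in both pairs, as 24.6% of genes were. In gpSSPCs it stood at 3.4 and 32.3 CPM in control and at 10.8 and 34.1 in CKO, higher in both pairs, as 23% of genes were. The log2 fold changes were -0.37 (SE 1.18) in pSSPCs and 0.33 (SE 1.09) in gpSSPCs, and the difference between them, 0.72 (SE 1.69, 95% interval -3.06 to 4.49), had an adjusted p of 1.0 (edgeR interaction term, Benjamini-Hochberg).

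Over the whole list, 2 of 9 genes with at least 50 UMIs in the 16-week libraries together were 1.5-fold or more lower in CKO, Zmpste24 and Lmnb1, and 0 were 1.5-fold or more higher. Of all 9143 genes with that many UMIs, 5.45% were lower and 2.73% higher by that measure. The median log2 ratio of CKO to control was -0.12 over the listed genes and -0.018 over all genes. Of these 2 genes, Zmpste24 kept a ratio past 1.5 in BMSC-like cells alone and Lmnb1 did not.

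**Figure D3:**
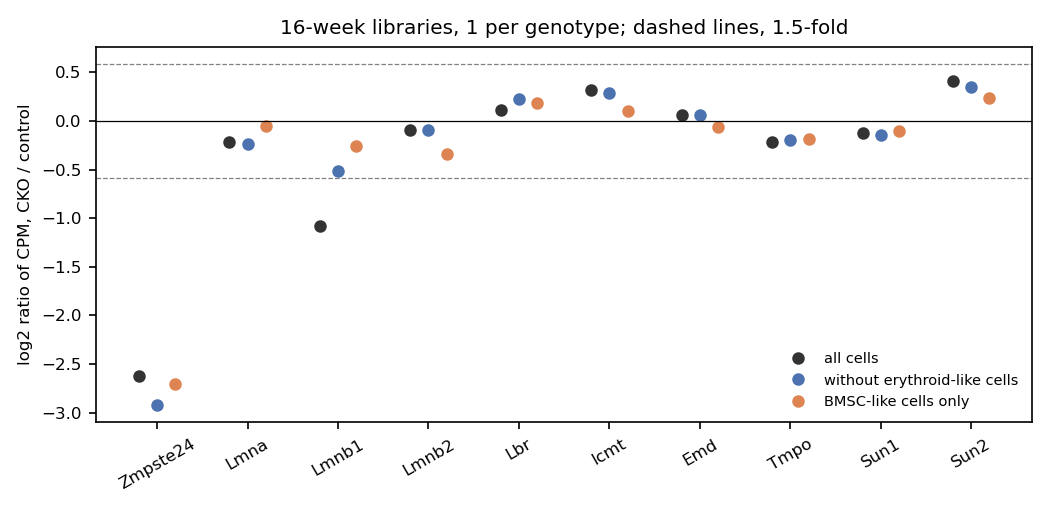
Ratio of CKO to control CPM on a log axis for each listed gene at 16 weeks, in all cells, without erythroid-like cells and in BMSC-like cells only. Zmpste24 lies at 0.162, 0.132 and 0.153, and Lmnb1 moves from 0.473 in all cells to 0.839 in BMSC-like cells.

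Of 16 further nuclear envelope genes 13 had enough UMIs at 16 weeks, and 2 of these passed 1.5-fold, where 2.73% of all genes were higher and 5.45% lower. In this list 1 was higher in CKO, Lemd3 (39 against 22 UMIs, 1.83-fold), which encodes the inner membrane protein MAN1, and 1 was lower, Smpd4 (19 against 34 UMIs, 1.74-fold), which encodes a sphingomyelinase. Of 15 nuclear pore genes 11 had enough UMIs and 0 passed in either direction, with Nup153 at 7.99 and 10.8 CPM in CKO and control and Nup133 at 9.14 and 6.93 CPM as those with the largest ratios.

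At 8 weeks 4 of the 10 listed genes had 50 UMIs over both libraries, and 1 was higher in Prx1-Cre than in Osx-Cre by 1.5-fold, Tmpo, and 1 lower, Zmpste24, against 6.78% and 7.95% of 5386 genes. Of the further envelope genes 6 had enough UMIs and Tmem43 was higher (64 against 27 UMIs, 1.59-fold). Of the proliferation genes 7 had enough UMIs and 6 were higher in Prx1-Cre, from Ube2c at 3.07-fold (87 against 19 UMIs) to Top2a at 1.76-fold (71 against 27 UMIs). Of the 993 Prx1-Cre cells 161 were chondrocyte-like, and of the 782 Osx-Cre cells 73.

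In sorted populations no listed gene passed an adjusted p of 0.05 in any of the 5 comparisons, and neither did any other gene in the fit without pairing. The share of genes called by edgeR's quasi-likelihood test with Benjamini-Hochberg adjustment was 0% of 12041 genes for CKO against control in gpSSPCs, 0% of 11878 in pSSPCs, 0% of 12151 and 11773 for gpSSPCs against pSSPCs in control and in CKO, and 0% of 13173 for the interaction. At an unadjusted p under 0.05, 57, 142, 630, 518 and 125 genes passed, all of them also over 0.25 in absolute log2 fold change (0.473%, 1.2%, 5.18%, 4.4% and 0.949% of genes tested) and none of them a listed gene, and DESeq2 called 1, 0, 163, 99 and 0 genes at an adjusted p under 0.05, again with no listed gene. With a replicate block, which takes the same-numbered samples as pairs, edgeR called 12, 38, 388, 541 and 2 genes, none of them listed. With 2 samples per group, 9 of the 10 listed genes were tested in gpSSPCs, 8 in pSSPCs and 9 in each other comparison.

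The spread between the 2 samples of a group exceeded the difference between genotypes for most of the list. In neither genotype comparison did a listed gene separate the groups without overlap, where 21.1% of all genes did in gpSSPCs and 22.6% in pSSPCs. Between populations 0 of 9 separated in control (32.3% of all genes) and 2 of 9 in CKO (30.4%), Lmnb2 and Icmt, both higher in gpSSPCs. The median log2 fold change of the tested genes, CKO against control, was 0.25 in gpSSPCs and -0.32 in pSSPCs, beside 0.0022 and -0.024 over all genes tested.

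**Figure D4:**
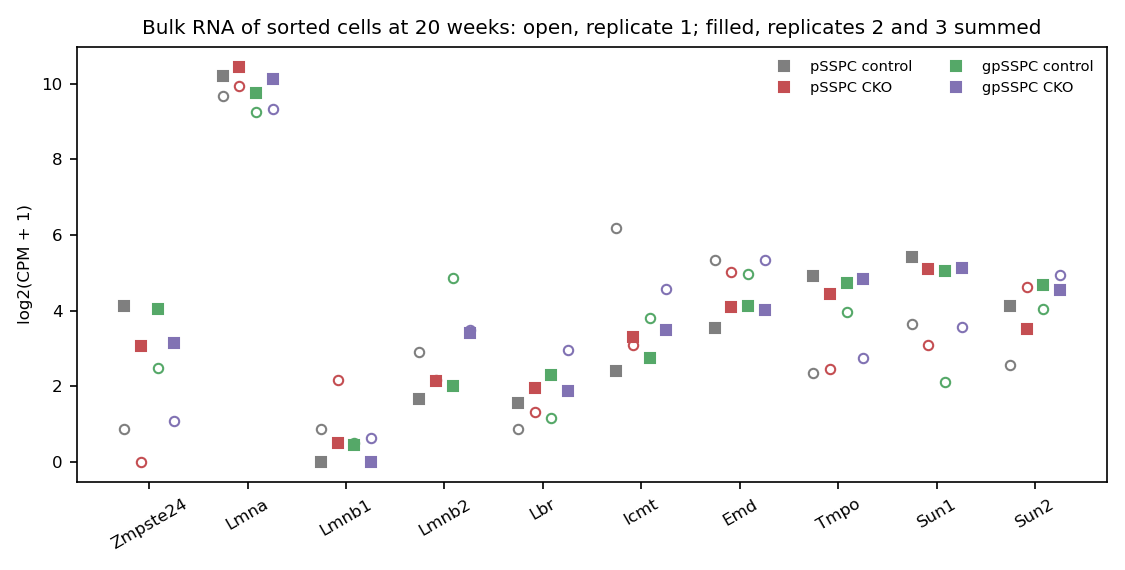
Normalised RNA-seq values in CPM on a log axis for the 10 listed genes in the 8 samples, with replicate 1 and the sum of replicates 2 and 3 as separate points for control and CKO of each population. Zmpste24 is lower in CKO in each of the 4 same-numbered pairs and Lmna is higher in each, while the 2 samples of a group lie far apart for most genes.

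The related lists gave no call at the adjusted p either. In gpSSPCs the median log2 fold change of CKO against control was 0.04 for 3 processing enzymes, 0.31 for 15 envelope genes, 0.25 for 14 nuclear pore genes and -1.06 for 12 proliferation genes, and 0 genes of any list passed the adjusted p (edgeR). Top2a alone had an unadjusted p under 0.05, at a log2 fold change of -2.33 (SE 1.00, edgeR unadjusted p = 0.0498, adjusted p of 1.0). In the proliferation list Top2a had 86.7 and 11.1 CPM in control gpSSPCs and 7.4 and 11.7 in CKO, so that the replicate 1 control alone stood out, and Ccnb1 had 12.1 and 2.8 CPM in control and 2.3 and 0.16 in CKO, lower in both pairs and without overlap. Of all genes tested in gpSSPCs, 24.9% were lower in both pairs and 21.1% did not overlap in either direction. In pSSPCs the medians were -0.58, -0.19, 0.22 and 0.35 in the same order, with Fnta at 197 and 83.0 CPM in control against 59.1 and 68.8 in CKO, lower in both pairs, and Rce1 at 33.7 and 47.0 CPM in control against 72.8 and 47.7 in CKO, higher in both pairs. Of all genes tested in pSSPCs, 24.6% were lower and 23.1% higher in both pairs. In control, 11 of 11 tested proliferation genes had a positive log2 fold change in gpSSPCs against pSSPCs (median 1.88), beside 6172 of all 12151 genes (median 0.020), and 0 passed the adjusted p or an unadjusted p under 0.05 (edgeR). In control gpSSPCs replicate 1 was the higher sample for 11 of these 11 genes, and in control pSSPCs for 10.

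Marker genes show what else the sorted samples held. The 9 chondrocyte markers summed to 24790 to 43490 CPM in gpSSPCs, where Col2a1 was 24750 and 15290 CPM in control and 11300 and 6271 in CKO, and to 6022 to 10420 CPM in pSSPCs. The 9 PMSC markers summed to 23060 to 49490 CPM in pSSPCs and 9455 to 37050 CPM in gpSSPCs, with Dcn or Prg4 as the most abundant. The 7 erythroid markers summed to 17.6 to 152 CPM in the replicate 1 samples, where 4 of 7 were at 0 in each, and to 1234 to 6607 CPM in the summed replicates 2 and 3, led by Hbb-bs, with 6607 in control and 2896 in CKO gpSSPCs. The 7 lymphoid markers, of which 5 or 6 were at 0 in each sample and Ighm or Cd79a led, summed to 1.64 and 2.3 CPM in control and 23.2 and 21.8 in CKO pSSPCs, and to 0.419 and 3.9 in control and 2.27 and 14.3 in CKO gpSSPCs. They were thus higher in CKO in 4 of 4 same-numbered pairs. Ighm alone was above 0 in each replicate 1 sample, so these sums stand for 1 or 2 genes and not for a cell type. Of single genes, 5.83% were higher and 6.42% lower in CKO in all 4 pairs. Endothelial sums (42.7 to 131 CPM in control, 64.0 to 182 in CKO) and Schwann sums (60.8 to 379 and 148 to 470) were also higher in CKO in the 4 pairs, and chondrocyte sums and tenocyte sums (781 to 1965 and 623 to 1405) lower. The Schwann sums were almost all S100b, from 59.97 of 60.8 CPM to 463 of 470 CPM. Of the 5 Schwann markers 1 to 3 were at 0 in each sample, so these sums stand for 1 gene and not for a cell type. In the same 4 pairs Zmpste24 was lower and Lmna higher, and the part of any cell type in those levels was not tested. The cells of these samples were stained at the sort for CD31, CD45 and Ter119, the antigens selected against for the single cells. The pan-leukocyte gene Ptprc was at 0 or 0.24 CPM in 7 of the 8 samples and at 5.6 CPM in the summed replicates 2 and 3 of CKO gpSSPCs. The 7 OB markers, led by Ibsp or Col1a1, summed to 15380 and 15430 CPM in replicate 1 of control and CKO pSSPCs and to 58560 and 58120 CPM in replicate 1 of control and CKO gpSSPCs, above the chondrocyte sums of those samples in both populations, against 4675, 4711, 21470 and 18090 CPM in the summed replicates 2 and 3. Pericyte sums were 144 to 164 CPM in the replicate 1 samples and 212 to 337 CPM in the summed replicates 2 and 3. Erythroid, PMSC and pericyte sums, the Schwann sums led by S100b and the levels of Zmpste24, Lmna, Tmpo and Sun1 were all higher in replicates 2 and 3 than in replicate 1 of each group. OB and chondrocyte sums were lower there in each group. The part of these cell types in the levels was not tested.

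Chromatin accessibility was measured by ATAC-seq in 12 libraries, with 12250713 to 46756821 tags after filtering and 59209 to 101606 peaks called in each library on its own. All 10 genes had a peak within 1 kb of an annotated coding start in 12 of 12 libraries. Promoter height is given as the highest pileup of tags in that window divided by the median of the library over promoters with a peak in every library, so that 1 is a typical accessible promoter. The Zmpste24 promoter was low on this scale, at 0.316, 0.277 and 0.291 in control pSSPCs, 0.229, 0.326 and 0.432 in CKO pSSPCs, 0.447, 0.315 and 0.623 in control gpSSPCs, and 0.431, 0.351 and 0.640 in CKO gpSSPCs. Genotypes overlapped in both populations, with means of 0.29 ± 0.02 and 0.33 ± 0.10 in pSSPCs and 0.46 ± 0.15 and 0.47 ± 0.15 in gpSSPCs (SD, n = 3).

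The Lmna promoter, taken as the highest peak over its 3 coding starts, stood above the typical promoter in every library and did not separate any groups. Its heights were 2.08, 2.00 and 1.78 in control pSSPCs, 2.00, 1.71 and 1.54 in CKO pSSPCs, 2.03, 1.77 and 1.65 in control gpSSPCs and 2.01, 2.10 and 1.78 in CKO gpSSPCs. The CKO to control ratio of the means was 0.895 in pSSPCs and 1.08 in gpSSPCs. In pSSPCs the CKO library was the lower in each of the 3 same-numbered pairs for Lmna, Lbr and Sun1, 3 of the 10 genes, as it was for 20.4% of 12684 promoters.

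Sun2 was the gene of the list whose promoter separated the genotypes, in gpSSPCs. Its heights were 1.39, 1.37 and 1.33 in control gpSSPCs and 1.63, 1.47 and 1.58 in CKO gpSSPCs, a 1.14-fold difference, and 1.28, 1.14 and 1.17 in control pSSPCs against 1.08, 1.23 and 1.11 in CKO pSSPCs. So 1 of 10 promoters did not overlap between genotypes in gpSSPCs, where 9.98% of 12951 promoters did so, and 0 of 10 in pSSPCs, where 14.4% of 12684 did. With 1 replicate number left out, 1 to 3 listed promoters did not overlap in gpSSPCs and 2 or 3 in pSSPCs, in comparisons of 2 against 2 libraries. Over all promoters, leaving out replicate 1, 2 or 3 gave 3293 of 13036, 3741 of 13048 and 5248 of 13420 in gpSSPCs. In pSSPCs it gave 4917 of 12905, 4159 of 12903 and 5342 of 12712. An exact permutation test of 3 against 3 libraries cannot go below p = 0.1, so that none of these could pass. When heights were instead scaled to the tags of each library, the Sun2 groups overlapped.

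Between populations, 2 of 10 promoters were higher in gpSSPCs in control, Lmnb2 (1.41-fold) and Sun2 (1.14-fold), beside 32.2% of 12463 promoters that did not overlap in either direction. In CKO 2 of 10 were higher in gpSSPCs, Sun2 (1.37-fold) and Sun1 (1.08-fold), beside 32.9% of 12514. Neither share is above the background, and these groups too overlapped when heights were scaled to the tags of each library. The Zmpste24 promoter was 1.57-fold higher in gpSSPCs in control and 1.44-fold in CKO, with overlapping values in both.

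**Figure D5:**
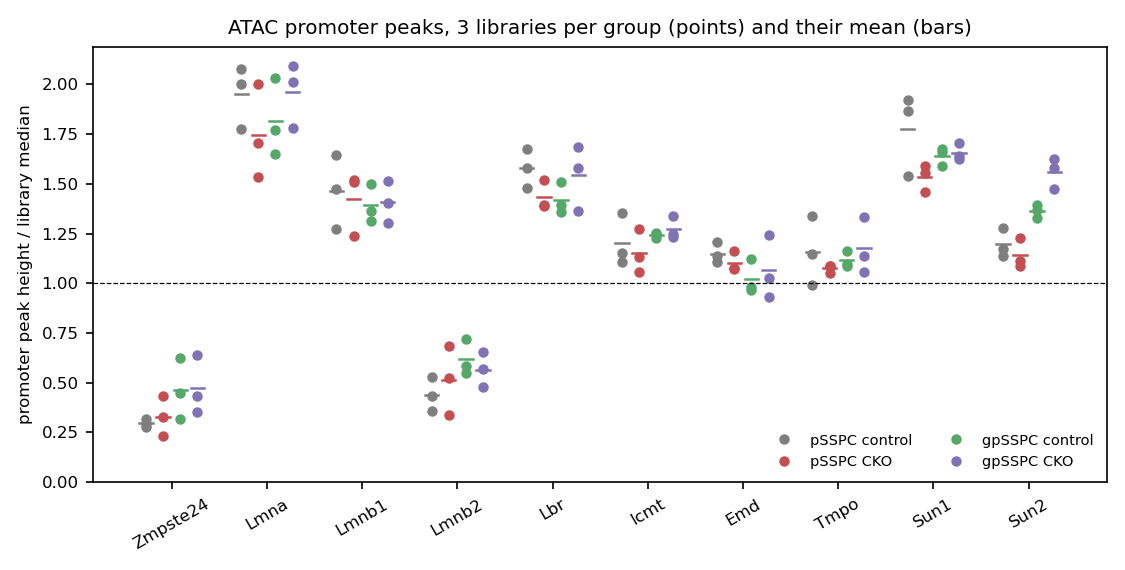
Height of the promoter peak relative to the library median (vertical axis) for the 10 listed genes in 12 ATAC-seq libraries, with points for libraries by population and genotype. Lmna lies at 1.54 to 2.10 and Zmpste24 at 0.229 to 0.640, and only Sun2 in gpSSPCs separates CKO from control.

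Promoter sequence is shown for Zmpste24, the gene deleted in CKO, and for 1 start of Lmna, the gene of its substrate. The Lmna start shown lies in a region that was a peak in 12 of 12 libraries (chr3:88502601-88504274), but the heights above were not assigned to single starts. The sequences are the 200 bases from 250 to 51 bases before the RefSeq start (GRCm38.p6, the assembly of mm10), at chr4:121098261-121098460 and chr3:88503403-88503602 on the minus strand, read 5′ to 3′, with a match to CCAAT on either strand in capitals. Zmpste24 has 1 match, on the reverse strand as ATTGG, and the Lmna start shown has 0, while another RefSeq start of Lmna has 1.
Zmpste24 promoter: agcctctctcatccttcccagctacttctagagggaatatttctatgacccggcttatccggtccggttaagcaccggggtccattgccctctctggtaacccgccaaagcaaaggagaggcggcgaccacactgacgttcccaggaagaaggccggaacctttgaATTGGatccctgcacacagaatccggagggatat
Lmna promoter: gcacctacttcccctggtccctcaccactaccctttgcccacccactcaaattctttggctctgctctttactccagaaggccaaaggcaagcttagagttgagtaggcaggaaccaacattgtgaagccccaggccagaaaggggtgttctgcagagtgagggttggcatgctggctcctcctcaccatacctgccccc

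The listed genes had 13 RefSeq starts with a promoter in the table, for 9 of the 10 genes. CCAAT was in 6 of the 13 windows (Lbr, Lmna, Sun1, Sun2 and Zmpste24) and in 28.4% of 32851 promoter windows of the same length. The GC box GGGCGG was in 6 of 13 (Emd, Icmt, Lbr, Sun1, Sun2 and Tmpo) and in 24.6% of all. The ETS motif CCGGAAGT was in 1 of 13 (the other Lmna start) and in 1.4% of all. Both strands were searched, the E-box CACGTG, the CRE TGACGTCA and the NRF1 motif gave 0 of 13 (4.34%, 0.828% and 0.444% of all), and a match is a description of the letters only.

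With the promoter peaks counted in, 89 accessible regions lay in the 10 genes or within 10 kb of them, of 176624 regions merged over the libraries. Of the 89, 31.5% were present in 12 of 12 libraries, against 14.3% of all regions, and 20.2% were in 1 library only, against 24.1%. The 31.5% includes the promoter peaks described above, which every listed gene had in 12 of 12 libraries. The share without promoters was not computed. Lmna had 19 regions, of which 5 were in every library, and Lmnb1 18, while Icmt had 3 and Lmnb2 had 4.

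Few of these regions followed genotype. In gpSSPCs 1 of the 89 was in 3 libraries of one genotype and 0 of the other (1.01% of all regions), an intron of Sun1 at chr5:139206402-139206906 that was a peak in 3 control gpSSPC libraries and in no other library. In pSSPCs it was also 1 of 89 (1.91% of all), downstream of Tmpo at chr10:91138298-91138670, in 3 CKO and 0 control libraries. An upstream region of Lmna at chr3:88513733-88514650 was present in 3 control and 3 CKO pSSPC libraries, 2 control and 0 CKO gpSSPC libraries.

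More followed population, though at less than the genome-wide share. In control 10 of 89 regions (11.2%) were in 3 libraries of one population and 0 of the other, against 18.4% of all regions, and in CKO 9 of 89 (10.1%), against 16.5%. A region downstream of Zmpste24 at chr4:121050299-121051023 was a peak in 6 of 6 gpSSPC and 0 of 6 pSSPC libraries. The same was true of an intron of Lmnb2 at chr10:80908701-80909245, an intron of Sun1 at chr5:139215962-139216815 and a region downstream of Lmnb1 at chr18:56763094-56763762. A region downstream of Lmnb1 at chr18:56758304-56759023 was the reverse, in 6 of 6 pSSPC and 0 of 6 gpSSPC libraries. Peaks were called separately in libraries of unequal depth, so that absence of a call does not show absence of signal.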

How the data were processed

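The authors aligned the RNA-seq reads (Smart-seq2 with molecular identifiers) with STAR, counted with HTSeq and deposited deduplicated counts per gene without normalisation. The authors made the scRNA-seq UMI counts with Cell Ranger 3.1.0 and deposited them per gene and cell. ATAC-seq reads were aligned with Bowtie2, and in each library the authors ran MACS2 2.2.7.1 at q 0.05 and deposited for each peak the pileup signal (tags, not scaled for depth), the fold enrichment, a ratio to the local background, and −log10 q-values. Of these, the pileup signal was compared and the −log10 q used as a filter.

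RNA-seq counts were tested with edgeR 4.0.16 in R 4.3.3 (TMM, filterByExpr, quasi-likelihood test, Benjamini-Hochberg threshold 0.05), with replicates 2 and 3 of each group summed and only the groups of each comparison in its fit (all 4 for the interaction). DESeq2 1.42.0 was an alternative. Of 53801 gene identifiers 53620 matched a symbol. Same-numbered control and CKO samples deviated together (correlations 0.529 to 0.585 over 10416 genes in 6 pairs of libraries). With replicates 2 and 3 summed there are 4 pairs, and the correlations within a population are not separate evidence, so the pairing rests on 1 value per population. A replicate block was fitted as an alternative. Deviations of log2 promoter heights from the group mean correlated likewise between same-numbered ATAC-seq libraries, at 0.167 to 0.532. On data simulated for control against CKO, with 200 genes changed 4-fold, the test recovered 99.5% in gpSSPCs (12062 genes, 4 false calls) and 97.5% in pSSPCs (12276 genes, 11 false calls). The simulation used 1 fixed spread and changed well-expressed genes only, so these shares do not carry over to genes as variable as those listed.

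Cells with at least 200 genes were kept, giving 993 of 999, 782 of 785, 2068 of 2088 and 2362 of 2373 cells. Seurat 5.3.0 integrated the libraries of an age over 2000 features, with listed genes left out. No doublet caller was run. A class name rests on markers, and clusters of BMSC-like cells at 16 weeks were led by Ccl2, Iigp1 and Isg15 (1118 control, 1163 CKO cells) and by Fzd5 and Ebf3 (593, 912). Levels are CPM with exact Poisson 95% intervals. A fold of 1.5 among genes with at least 50 UMIs over both libraries was used, with 3 UMIs as the limit that a count of 0 allows. Only genes of the fixed lists are named, with the 2 of each list and comparison that changed most in view, the 3 genes most like Lmna, and regions that separate groups. Likeness used sums of at least 30 cells, genes with at least 500 UMIs and log2 of CPM plus 10. Promoter windows were 1 kb around GENCODE vM21 coding starts. The listed genes and lists were chosen with earlier results of these data known.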

Additional observations from a re-analysis of the deposited data

Results flagged for a closer look

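Sun1 was singled out because its genotype difference ran in opposite directions in the 2 sorted populations. CKO was above control in both same-numbered pairs of gpSSPCs and below it in both pairs of pSSPCs. The difference between the log2 fold changes was 0.72 (SE 1.69, 95% interval -3.06 to 4.49), with an adjusted p of 1.0 by edgeR's quasi-likelihood test of the interaction with Benjamini-Hochberg adjustment, so that the difference did not pass. No group of the RNA-seq, scRNA-seq or ATAC-seq data had 4 or more samples, so no sample could be compared with its group as an outlier.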

How the results depend on the processing

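Counts of RNA-seq genes called are given in the order CKO against control in gpSSPCs, in pSSPCs, gpSSPCs against pSSPCs in control, in CKO, and the interaction. They were 0 in all 5 as reported, and 12, 38, 388, 541 and 2 with a replicate block, which takes the same-numbered samples as pairs. With each library as a sample they were 0, 0, 247, 180 and 0, and with each library as a sample and a replicate block 0, 5, 863, 834 and 13. DESeq2 called 1, 0, 163, 99 and 0, and with no filter on low counts edgeR called 3, 5, 61, 50 and 2. The threshold of the study (unadjusted p under 0.05 and a log2 fold change over 0.25), added after seeing the data, passed 57, 142, 630, 518 and 125. DESeq2 size factors in edgeR, all 4 groups in 1 fit, and leaving out replicate 2 or replicate 3 gave 0 in each comparison where they were run. No listed gene was called in any of these settings. Of 420 log2 fold changes of listed genes under other settings, 47 changed sign, 21 of them among the 44 without replicate 1, where 1 sample per group is left and no test was made, and none of those printed above. At a fold of 2 the genes past the fold were 204 at 16 weeks and 222 at 8 weeks, against 748 and 793 at 1.5, with the same number of listed genes, 2 and 2. With at least 500 genes per cell, 1 listed gene was past the fold at 16 weeks. The CKO to control ratio of Lmnb1 was 0.70 without erythroid-like cells and 0.84 in BMSC-like cells, subsets added after seeing the data. Lmna in Osx-Cre PMSC-like cells was 1448 CPM when libraries were merged without integration. With heights scaled to the tags of each library, 47, 317, 2182 and 558 promoters did not overlap (gpSSPC genotype, pSSPC genotype, control populations, CKO populations), against 1292, 1823, 4008 and 4112, and the only listed gene to separate was Emd, lower in control gpSSPCs than in control pSSPCs, where the reported heights overlapped. Leaving out 1 replicate gave 3293 to 5248, 4159 to 5342, 6012 to 7797 and 6174 to 7654, with 1 to 3, 2 to 3, 4 to 6 and 3 to 7 of the listed genes among them, against 1, 0, 2 and 2 with 3 libraries a group. The causes were not tested, beyond the fewer samples that leaving one out compares. Depth limits the single-cell levels, since 3 UMIs equal 0.831 to 2.88 CPM over all cells and up to 585 CPM in the 5 endothelial-like Osx-Cre cells. In the RNA-seq the intervals of listed genes span several-fold, and the number of samples and the spread between them were not told apart.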
